A study of Homo sapiens with 16 samples.

Results

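The integrated stress response was examined in YEATS2 knockdown (KD) cells through 10 genes, which are the transcription factor gene ATF4 and 9 genes regarded as its targets (ATF3, DDIT3, DDIT4, TRIB3, CHAC1, ASNS, SESN2, PSAT1 and PHGDH). They were taken by gene symbol from the deposited table of read counts, which lists all 10 of them among 12676 genes. The counts come from mRNA-seq of H1299, an established line of human non-small cell lung cancer. The cells were infected with lentivirus carrying a non-targeting control shRNA (shNT, named shCtrl in the library titles) or an shRNA against YEATS2 (shYEATS2), and 2 libraries were made of each. Both groups went through the same infection with polybrene and the same puromycin selection. The study names shY2-1 for the RNA-seq it made in duplicate, and it also reports RNA-seq with another YEATS2 shRNA of partial effect. The labels of the libraries used here do not name the shRNA. Other effects of the shRNA used cannot be told apart here from YEATS2 loss. The study calls the 2 libraries of a group independent biological replicates, the labels do not say which cultures they came from, and the p-values rest on the spread between these libraries. The ChIP-seq samples of the series were not analysed here.

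The integrated stress response is a shared reaction of cells to amino acid shortage, unfolded protein in the endoplasmic reticulum, double-stranded RNA and heme shortage. Each of these activates a kinase that phosphorylates the translation factor eIF2, which lowers protein synthesis in general while the ATF4 mRNA is translated more. ATF4 is controlled to a large degree at translation, and its mRNA level is therefore an incomplete measure of its activity. The ATF4 protein binds C/EBP-ATF response elements together with C/EBP proteins and raises genes for amino acid synthesis, amino acid uptake and, under lasting stress, growth arrest and cell death.

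The first sequences shown are those of this element in the promoters of the 10 genes, because they tell which of the genes carry the ATF4 element close to an annotated start. RefSeq promoter windows of 300 bases (250 before and 50 after the start, GRCh38.p14) were found for all 10 genes, in 16 windows. The core word TGATGNAA was searched on both strands and was found in 3 of the 10 genes, which were ATF3, CHAC1 and ASNS. Of all 27305 genes with a window, 4.46% carry the word. The matches are given below as 24 bases each on the strand of the gene, with the matched word in capitals. The word reads in reverse in CHAC1, where the capitals are its complement.
ASNS, chr7:97872461-97872484, gene on the minus strand: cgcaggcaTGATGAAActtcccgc
CHAC1, chr15:40953254-40953277, gene on the plus strand: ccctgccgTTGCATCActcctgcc
ATF3, chr1:212565208-212565231, gene on the plus strand: ggtcaggaTGATGGAAggctgtca
The matches begin 68 bases before 1 of the 2 annotated starts of ASNS, 209 bases before the start of CHAC1 and 191 bases before 1 of the 2 annotated starts of ATF3. The window of the other start held no match in ASNS or ATF3. The word TGACGTCA, the cyclic AMP response element that ATF proteins also bind, was in none of the 10 genes and in 2.25% of all genes. These letters describe the windows searched, and elements that lie farther from the starts were not searched for.

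The listed genes received between 34718921 and 39417787 reads per library. Counts are given here after scaling by the TMM method of edgeR to the mean effective library size, and the groups were compared with the quasi-likelihood test of edgeR. P-values were adjusted by Benjamini-Hochberg over all 12676 genes, and a gene was said to rise or fall at a false discovery rate (FDR) under 0.01. The shRNA target came first. YEATS2 had 4482 and 4104 scaled reads in shNT cells and 665 and 673 in YEATS2 KD cells, a log2 fold change of -2.68 (standard error, SE, 0.10). The H1299 genes KRT8, KRT18 and VIM were listed with at least 9029 reads in every library. None of 7 blood and endothelial marker genes was listed. The table holds only genes with over 100 reads in at least 1 library.

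Of the 10 genes, 4 rose in YEATS2 KD cells (TRIB3, DDIT3, SESN2 and ATF3) and none fell. Over all genes tested, 12.9% were called higher and 12.5% lower. These are 1630 and 1581 genes, and scaling by total counts gave 2363 and 1166 in their place. A further 3 (CHAC1, ASNS and DDIT4) had both knockdown libraries above both control libraries with FDR values between 0.0111 and 0.0383, and so did not pass. ATF4 itself and the serine synthesis genes PSAT1 and PHGDH had log2 fold changes between -0.0049 and 0.10. Both knockdown libraries lay above both controls in 7 of the 10 genes, against 39.7% of all genes, and in the other 3 the groups overlapped. The 10 genes had a median log2 fold change of 1.30, and all genes had one of -0.0019. With exactTest of edgeR, the test that the study's methods name, all 7 of the genes without overlap were called higher, where 20.5% of all genes were. At an FDR under 0.05 in the quasi-likelihood test the number was also 7, against 24.4% of all genes. Without shNT replicate 2, the control library in which these genes were higher, the median of the 10 genes was 1.94. Without shNT replicate 1 it was 0.87, and without shYEATS2 replicate 2 it was 1.10. In these bulk libraries a change in some of the cells and a change in all of them cannot be told apart.

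**Figure D1:**
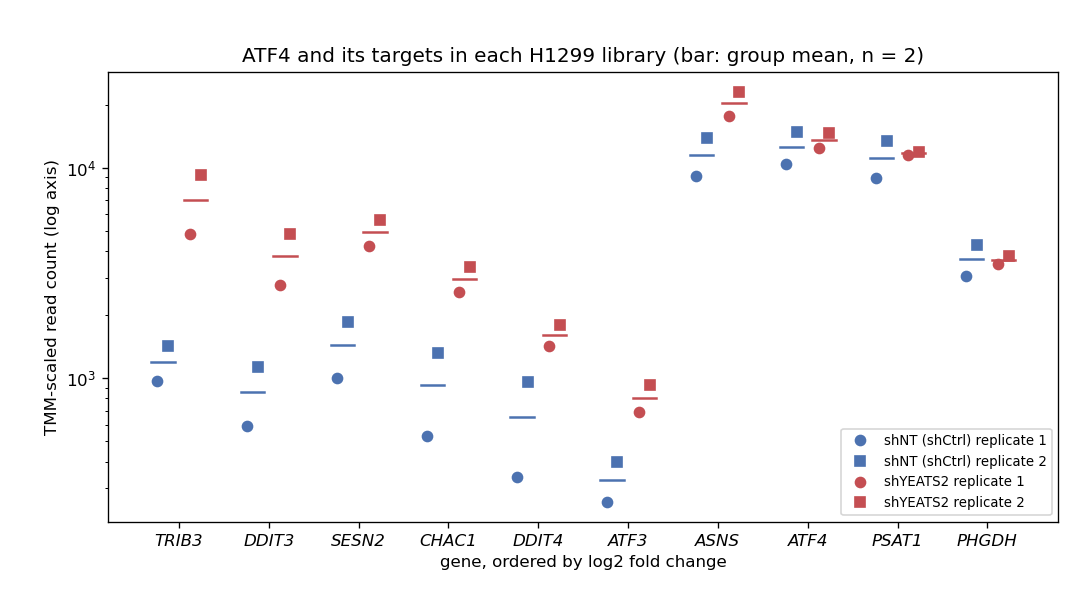
Scaled read counts (log axis) of the 10 genes in each of the 4 H1299 libraries, with shNT in blue, shYEATS2 in red, replicate 1 as circles, replicate 2 as squares and bars at the group means (n = 2). The red points lie above the blue points in the first 7 genes, and red and blue points overlap in ATF4, PSAT1 and PHGDH.

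ATF4, listed as ENSG00000128272, lies on chromosome 22 of GRCh37 (hg19) from 39915700 to 39918688 on the plus strand. The 2 libraries of each group gave 10472 and 14743 scaled reads in shNT cells and 12367 and 14692 in YEATS2 KD cells. The shYEATS2 values lay within the range of the shNT values. The log2 fold change was 0.10 (SE 0.17, FDR 0.648, edgeR quasi-likelihood test). The 95% interval reached from -0.31 to 0.52, so a rise of up to 1.43-fold or a fall to 0.806 of the control level remained within the error. ATF4 had the highest level of the 10 genes per length, with 8885 scaled reads per kilobase of its canonical transcript in the controls and 9535 in YEATS2 KD cells.

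ATF3 and DDIT3 encode transcription factors that act after ATF4 in the response. DDIT3 encodes CHOP, a factor of the C/EBP family known for its part in cell death under lasting stress. DDIT3 (chromosome 12, 57910371 to 57915520, minus strand) had 594 and 1130 scaled reads in shNT cells and 2785 and 4844 in YEATS2 KD cells. Every knockdown library was thus above both controls, although the libraries of 1 group differed by 0.93 and 0.80 on the log2 scale. The log2 fold change was 2.15 (SE 0.35, FDR 0.00402, edgeR quasi-likelihood test), or 4.43-fold with a 95% interval of 2.48 to 7.91. Of the 903 bases of its canonical transcript, 219 overlap annotated exons of MARS on the opposite strand. The study's methods name HTSeq at default settings and do not say whether the libraries were stranded. How reads of the overlap were counted was not checked, and they may have been dropped or assigned to either gene. MARS had a log2 fold change of 0.41 (SE 0.11, FDR 0.0188).

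ATF3 is a stress factor of the same bZIP class that represses and activates genes according to its partner. It lies on chromosome 1 from 212738676 to 212794119. It gave 258 and 397 scaled reads in shNT cells and 687 and 923 in YEATS2 KD cells. All of these are low beside the other genes, and per kilobase ATF3 was the lowest of the 10 in both groups. The groups were separate, with a log2 fold change of 1.30 (SE 0.23, FDR 0.00542, edgeR quasi-likelihood test). Without shYEATS2 replicate 2 the log2 fold change was 1.07 and ATF3 was not called, and fewer of all genes were then called higher. The remaining shYEATS2 library, with 687 scaled reads, was above both controls.

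TRIB3 encodes a pseudokinase that CHOP and ATF4 induce and that binds ATF4 and the kinase AKT. It showed the largest rise of the 10 genes. TRIB3 (chromosome 20, 343479 to 378203) had 966 and 1418 scaled reads in shNT cells and 4862 and 9202 in YEATS2 KD cells. The lower knockdown library was far above the higher control. The log2 fold change of 2.56 (SE 0.32, FDR 0.00181, edgeR quasi-likelihood test) corresponds to 5.90-fold with a 95% interval of 3.48 to 10.0, and it ranked 51 among the 12676 genes. Replicate 2 of shYEATS2 had more of its reads than replicate 1, by 0.92 on the log2 scale, and the log2 fold change of TRIB3 stayed between 2.03 and 2.95 whichever library was left out.

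SESN2 and DDIT4 encode inhibitors of mTORC1, the kinase complex that couples nutrients to growth. Sestrin 2, the product of SESN2, also acts as a leucine sensor. SESN2 (chromosome 1, 28586029 to 28609002) had 1005 and 1852 scaled reads in shNT cells and 4225 and 5638 in YEATS2 KD cells. The knockdown libraries were again above both controls, and the log2 fold change was 1.79 (SE 0.28, FDR 0.00363, edgeR quasi-likelihood test). DDIT4, also called REDD1, is a target of several stress pathways besides this one, including that of low oxygen. DDIT4 (chromosome 10, 74033678 to 74035794) had 338 and 960 scaled reads in shNT cells and 1416 and 1785 in YEATS2 KD cells. The controls differed by 1.51 on the log2 scale, which was the widest gap between replicates among the 10 genes. Its log2 fold change of 1.30 nearly equalled that of ATF3, but its SE was 0.41 and its FDR 0.0383, and it did not pass. Without shNT replicate 2 the log2 fold change of DDIT4 was 2.25 and it was called, and without shNT replicate 1 it was 0.73 and was not called. The gap between the controls does not enter the error of either fit.

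CHAC1 encodes an enzyme that degrades glutathione and is known as a sensitive readout of ATF4 and CHOP. CHAC1 (chromosome 15, 41245160 to 41248710) had 532 and 1313 scaled reads in shNT cells and 2565 and 3381 in YEATS2 KD cells. The groups did not overlap, and the gap between the controls was 1.30 on the log2 scale. The log2 fold change was 1.69 (SE 0.37), and its FDR of 0.0111 (edgeR quasi-likelihood test) just missed 0.01. With either control library left out CHAC1 was called, but the gap between the controls then no longer enters the error. The log2 fold changes were 1.18 without replicate 1 and 2.48 without replicate 2. CHAC1 was also called without shYEATS2 replicate 1 (1.87), but not without shYEATS2 replicate 2, where the log2 fold change was 1.48.

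**Figure D2:**
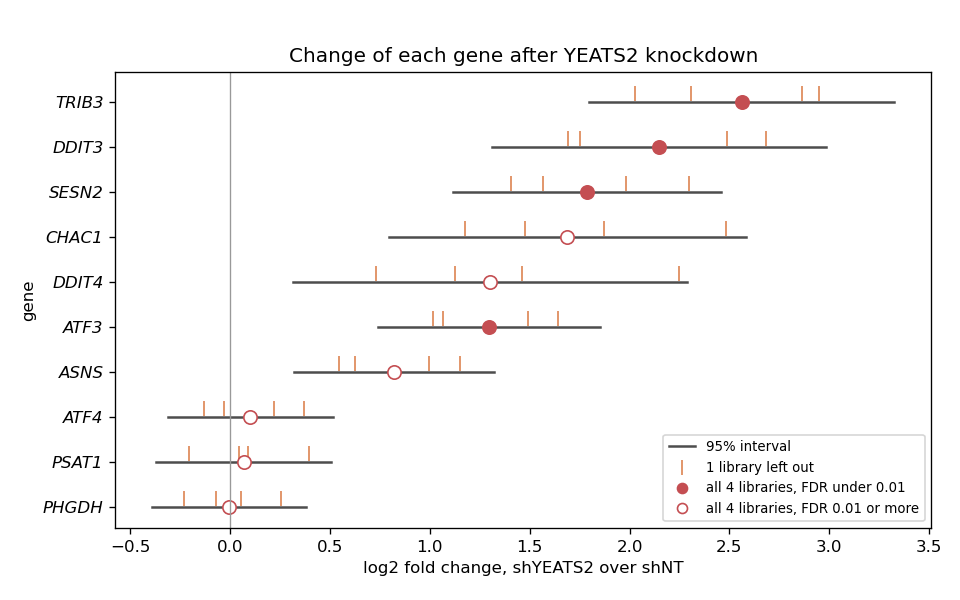
Log2 fold change of shYEATS2 over shNT for each of the 10 genes, with the 95% interval as a line and the values with each library left out in turn as orange ticks. Filled points passed an FDR of 0.01, and the intervals of ATF4, PSAT1 and PHGDH include 0.

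The last 3 genes encode enzymes of amino acid synthesis. ASNS makes asparagine, and the word printed above lies before 1 of its starts. ASNS (chromosome 7, 97480989 to 97501854, minus strand) had 9115 and 13814 scaled reads in shNT cells and 17670 and 22841 in YEATS2 KD cells. Both knockdown values lay above both controls, and the log2 fold change was 0.82 (SE 0.21, FDR 0.0187, edgeR quasi-likelihood test), so that ASNS did not pass. With shNT replicate 2 left out the log2 fold change was 1.15 and ASNS was called, but the gap between the controls then does not enter the error. With shYEATS2 replicate 1 left out the log2 fold change was 0.99 and ASNS was called. It was 0.55 without shNT replicate 1 (FDR 0.0580) and 0.62 without shYEATS2 replicate 2 (FDR 0.0621), and was not called in either. Its pseudogene ASNSP1 is also in the count table, with 158 and 222 unscaled reads in shNT cells and 912 and 1641 in YEATS2 KD cells. ASNSP1 was called higher (log2 fold change 2.51, SE 0.27, FDR 0.00130, edgeR quasi-likelihood test). The unscaled reads of ASNS itself numbered 8471 and 12734 in shNT cells and 17983 and 25835 in YEATS2 KD cells. Reads that match both copies may have been assigned to either or dropped, so both values are uncertain to that extent.

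PHGDH and PSAT1 catalyse the opening steps of serine synthesis from a glycolysis intermediate. PSAT1 (chromosome 9, 80912041 to 80945009) had 8931 and 13467 scaled reads in shNT cells and 11563 and 11916 in YEATS2 KD cells. PHGDH (chromosome 1, 120191034 to 120286841) had 3061 and 4277 in shNT cells and 3499 and 3814 in YEATS2 KD cells. In both genes the knockdown values lay between the 2 control values. The log2 fold change was 0.07 for PSAT1, with a 95% interval from -0.37 to 0.50. It was -0.0049 for PHGDH, with an interval from -0.39 to 0.38. The upper bounds of these intervals were 1.42-fold and 1.30-fold. The interval of ASNS, from 1.25-fold to 2.50-fold, overlaps both, and no difference between the genes was tested. The enzyme of the next step, PSPH, had a log2 fold change of 0.38 (SE 0.15, FDR 0.0679) and did not pass.

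Scaled counts of all 10 genes were higher in replicate 2 than in replicate 1 in the shNT group, and also in the shYEATS2 group. Among all genes tested, 31.5% were higher in replicate 2 in both groups. Among the 72 other genes of the response described below, 38 (52.8%) were. The 10 genes together took 0.0922% and 0.142% of the listed reads in shNT cells and 0.176% and 0.227% in YEATS2 KD cells. The shNT libraries thus differed from each other in the level of these genes in the same direction as the shYEATS2 libraries did. Whether the replicate numbers stand for a shared culture or day is not given in the sources used here, and the part of such a difference in the results was not tested.

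A measure that needs no scaling between libraries is the number of reads of a gene for each ATF4 read of the same library. For TRIB3 it was 0.0923 and 0.0962 in shNT cells and 0.393 and 0.626 in YEATS2 KD cells. The controls, which differed by 0.55 on the log2 scale in scaled TRIB3 counts, differed by 0.060 in this ratio. For ASNS the ratio was 0.870 and 0.937 in shNT cells and 1.43 and 1.55 in YEATS2 KD cells, and the gap between the controls was 0.11 on the log2 scale in place of 0.60. Because the controls differed by 0.49 in scaled ATF4 counts, the ratio moves the control gap of every gene by that amount, and the controls still differed by 1.01 in DDIT4 and by 0.81 in CHAC1. Between the knockdown libraries the gap in the ratio was 0.67 for TRIB3, and for PSAT1 it was 0.21 where the scaled counts had 0.043. Reads of ATF3 for each ATF4 read were 0.0247 and 0.0269 in the controls and 0.0555 and 0.0628 in the knockdown. In the 7 genes whose scaled counts were separate, both knockdown ratios lay above both control ratios. In PHGDH the ratio was 0.292 and 0.290 in shNT cells and 0.283 and 0.260 in YEATS2 KD cells, so that both knockdown libraries lay slightly below both controls. In PSAT1 it was 0.853 and 0.913 against 0.935 and 0.811, and the groups overlapped. The log2 differences between the groups in this ratio ranged from -0.10 for PHGDH to 2.40 for TRIB3. This measure was chosen after the values had been seen and was not tested, since 2 libraries against 2 cannot go below a two-sided p of 0.333 in an exact permutation test.

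**Figure D3:**
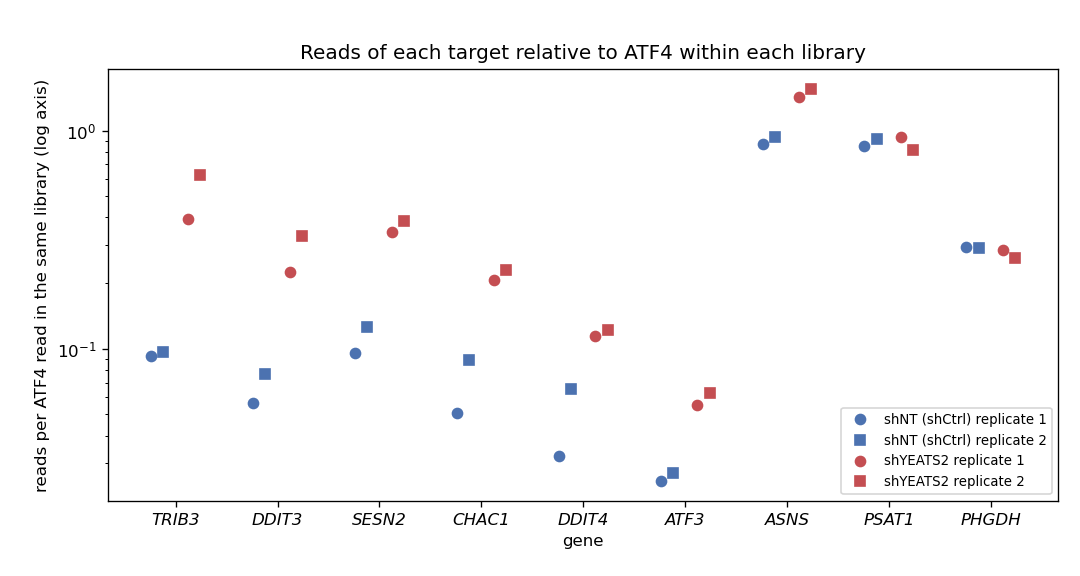
Reads of each of the 9 targets for each ATF4 read in the same library (log axis), with shNT in blue, shYEATS2 in red, replicate 1 as circles and replicate 2 as squares. For TRIB3 the shNT libraries were at 0.0923 and 0.0962 and the shYEATS2 libraries at 0.393 and 0.626, while the groups overlap for PSAT1 and the knockdown libraries lie slightly below the controls for PHGDH.

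By level per kilobase of canonical transcript, the order in the shNT libraries was ATF4, PSAT1, ASNS, PHGDH, DDIT3, CHAC1, TRIB3, SESN2, DDIT4 and ATF3, with group means from 8885 down to 169 scaled reads per kilobase. ATF4, PSAT1 and ASNS lay above 95% of all genes and ATF3 at the 30.6th percentile. In YEATS2 KD cells ASNS stood at rank 2 with 8493 scaled reads per kilobase, DDIT3 at rank 4 with 4224, TRIB3 at rank 5 with 2985 and PHGDH at rank 6 with 1960. Given the gaps between replicates, many neighbours cannot be ordered. Examples are PSAT1 and ASNS or CHAC1, TRIB3 and SESN2 in the controls, and PHGDH and CHAC1 or ATF4 and ASNS in the knockdown. The ranks are those of the group means and were not tested. DDIT4 has no canonical transcript on this build in the annotation used, and its length is that of all its annotated exons.

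The wider response was described with 76 other genes in 6 lists, of which 72 were in the count table. Of these, 23 rose and 3 fell, and the median log2 fold change was 0.37. The background was the same 12.9% and 12.5% as above. Of these 26 calls, 13 were kept whichever library was left out, 12 of them rises. How many calls of all genes were kept in this way was not counted. Leaving out shYEATS2 replicate 2 gave fewer rises, and fewer genes were then called higher over all genes as well. The count of falls was 1 without shNT replicate 1, shNT replicate 2 or shYEATS2 replicate 2, and also 1 when total counts were used for scaling.

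Among 15 genes for the kinases that phosphorylate eIF2, their regulators and the exchange factor eIF2B, 1 rose and 2 fell, with a median of 0.07. These counts are near or below the shares of all genes, 12.9% higher and 12.5% lower. PPP1R15A, which encodes GADD34, the stress-induced subunit that directs a phosphatase to eIF2 and ends the response, had 1904 and 2113 scaled reads in shNT cells and 3242 and 4380 in YEATS2 KD cells (log2 fold change 0.92, SE 0.16, FDR 0.00437, edgeR quasi-likelihood test). It was not called without shNT replicate 1. The falls were in OMA1, a mitochondrial protease that relays mitochondrial stress (-0.58), and EIF2B4, a subunit of eIF2B (-0.54). Neither was called with total counts. OMA1 lost its call whichever library was left out, and EIF2B4 was called only without shYEATS2 replicate 1 among those fits. None of the 4 eIF2 kinase genes was called, and their log2 fold changes were 0.07 for EIF2AK2 (PKR), 0.14 for EIF2AK1 (HRI), 0.22 for EIF2AK4 (GCN2) and 0.45 for EIF2AK3 (PERK). These kinases are regulated through their activity, which mRNA counts do not measure.

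Of 10 genes for bZIP partners and cofactors of ATF4, 2 rose and none fell. The 2 rises are near the 12.9% of all genes called higher, and 12.5% of all genes were called lower. NUPR1, a small stress-induced chromatin protein, had 5 and 13 unscaled reads in shNT cells and 85 and 237 in YEATS2 KD cells, with a log2 fold change of 3.90 (SE 0.62, FDR 0.00370, edgeR quasi-likelihood test). Its control counts are low and the fold is accordingly imprecise, with a 95% interval from 2.43 to 5.38 on the log2 scale. CEBPG, the C/EBP partner with which ATF4 binds its element, rose from 5928 and 6443 scaled reads to 9670 and 10059 (log2 fold change 0.67, FDR 0.00257, edgeR quasi-likelihood test), a call lost without shNT replicate 1. CEBPB and ATF5 had log2 fold changes of 0.17 and 0.25 and were not called. The others that were not called ranged from -0.33 for JUN to 1.56 for JDP2 (FDR 0.0127, edgeR quasi-likelihood test). The list had 4 rises with total counts, a setting that called 2363 of all 12676 genes higher. It had 1 when a mean count of at least 100 was asked for, where 1621 of 12137 genes were called higher. That filter removes NUPR1.

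Of 9 amino acid transporter genes, 3 rose and none fell, where 12.9% of all genes rose and 12.5% fell. SLC7A11, which imports cystine for glutathione synthesis, had 1215 and 1966 scaled reads in shNT cells and 3747 and 4857 in YEATS2 KD cells (log2 fold change 1.44, SE 0.23, FDR 0.00396, edgeR quasi-likelihood test). The others were SLC6A9, a glycine transporter (1.08, called only without shNT replicate 2 among the fits with a library left out), and SLC1A4, a carrier of neutral amino acids (0.95). The subunits of the leucine carrier, SLC7A5 and SLC3A2, had values of 0.37 and 0.49 with FDR values of 0.0486 and 0.0163 and were not called.

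Of 10 other genes for amino acid and one-carbon enzymes, 3 rose and none fell, beside 12.9% and 12.5% of all genes. ALDH1L2, a mitochondrial enzyme of folate metabolism, had 407 and 520 scaled reads in shNT cells and 1730 and 1874 in YEATS2 KD cells, a log2 fold change of 1.96 (SE 0.14, FDR 0.000793, edgeR quasi-likelihood test). CTH, which makes cysteine, rose 2.84-fold, and MTHFD2, another mitochondrial folate enzyme, rose by 0.45 on the log2 scale, a call lost whichever library was left out. CBS, PYCR1 and ALDH18A1 had values between -0.21 and -0.03 and were not called. GOT1, GPT2, PSPH and SHMT2 had values between 0.16 and 0.49 and were not called either. Among 11 tRNA synthetase genes and XPOT, which encodes the tRNA exporter, 2 rose, namely WARS (0.65) and SARS (0.56), and the median was 0.28. Neither was called without shNT replicate 1, shNT replicate 2 or shYEATS2 replicate 2. The count of rises in this list was 5 with total counts, DESeq2, exactTest, the replicate block or an FDR under 0.05. In the same order, these settings called 2363, 2159, 2596, 2742 and 3093 of all 12676 genes higher. The 2 rises among these 12 genes are near the 12.9% of all genes called higher.

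The list of other ATF4 and CHOP targets held the most calls. Of its 16 genes in the table, 12 rose and 1 fell, and the median was 1.01. Over all genes, 12.9% rose and 12.5% fell. GDF15, a secreted stress hormone, had 6 and 30 unscaled reads in shNT cells and 137 and 349 in YEATS2 KD cells (log2 fold change 3.51, SE 0.64, FDR 0.00571, edgeR quasi-likelihood test). SQSTM1, which encodes the autophagy receptor p62 and is also a target of other stress factors, rose from 13110 and 10944 scaled reads to 43187 and 57434 (2.06, FDR 0.000876). ADM2, a secreted peptide of the calcitonin family, followed with 1.99. GDF15 and ADM2 were not called without shYEATS2 replicate 2. The gene that fell was ERO1L, an oxidase for disulfide bonds in the endoplasmic reticulum, with 2950 and 2862 scaled reads in shNT cells and 1245 and 1014 in YEATS2 KD cells (-1.36, FDR 0.00100). Without shYEATS2 replicate 2 fewer genes of this list were called higher, as were fewer of all genes.

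**Figure D4:**
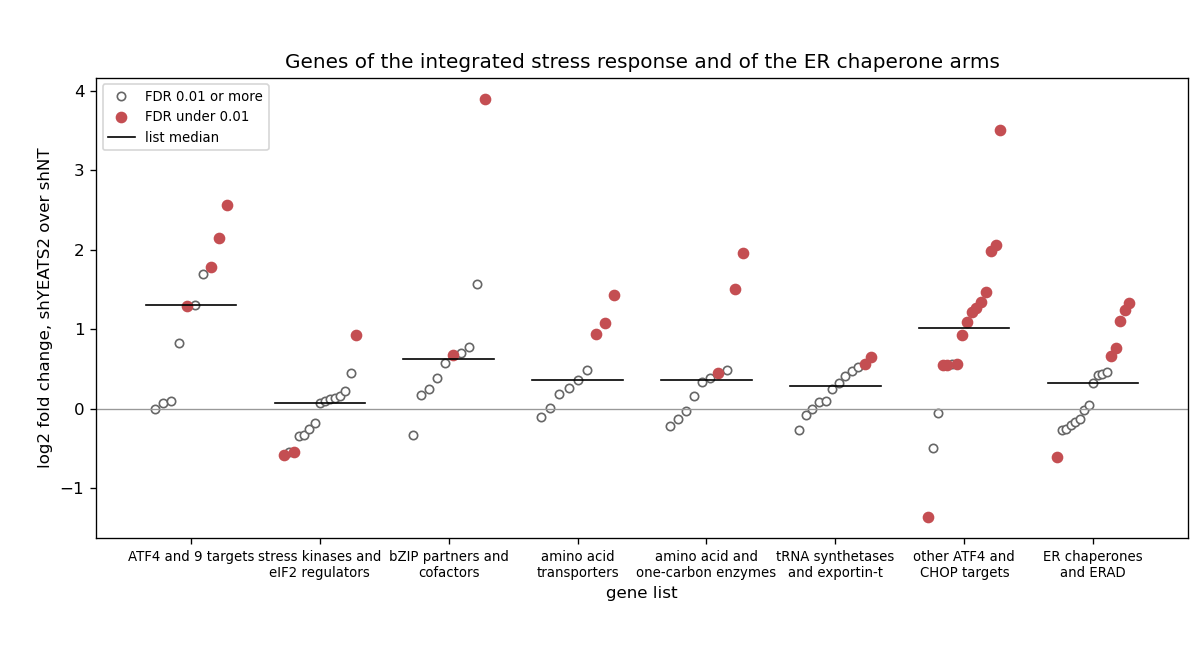
Log2 fold change of shYEATS2 over shNT for the 10 genes, for the 6 lists of other genes of the response and for genes of the ATF6 and XBP1 arms, with each point 1 gene, filled where the FDR was under 0.01, and the list median as a line. The medians range from 0.07 for the stress kinases and eIF2 regulators to 1.30 for ATF4 and its 9 targets.

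The endoplasmic reticulum has further stress arms that run through ATF6 and XBP1 and raise chaperones and degradation factors. Of 17 genes of these arms, 5 rose and 1 fell, where 12.9% of all genes rose and 12.5% fell. The 1 fall is thus below the share of all genes. The median log2 fold change was 0.32. The rises were in DNAJB9 (1.33), EDEM1 (1.24), ERN1 (1.10), XBP1 (0.76) and HYOU1 (0.67), and neither XBP1 nor HYOU1 was called without shNT replicate 1 or without shYEATS2 replicate 2, and HYOU1 also lost its call without shNT replicate 2. DNAJB9 and EDEM1 encode a co-chaperone and a degradation factor, and ERN1 encodes the sensor IRE1 that splices the XBP1 mRNA. HYOU1 encodes a chaperone. The other 11 genes of these arms were not called. Their log2 fold changes were below 0 for CALR (-0.28), MANF (-0.26), PDIA6 (-0.21), CRELD2 (-0.17), PDIA4 (-0.13) and HSP90B1 (-0.02). They were above 0 for DNAJB11 (0.05), HSPA5 (BiP, 0.32), SEL1L (0.42), SYVN1 (0.43) and ATF6 (0.46). The gene that fell was SDF2L1 (-0.60, FDR 0.00675, edgeR quasi-likelihood test), which was not called with total counts or without shNT replicate 1, shNT replicate 2 or shYEATS2 replicate 2. The count of rises was 8 with total counts, exactTest, the replicate block or an FDR under 0.05. In the same order, these settings called 2363, 2596, 2742 and 3093 of all 12676 genes higher. With a library left out, log2 fold changes lay between 0.56 and 0.94 for XBP1 and between 0.50 and 0.82 for HYOU1.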

How the data were processed

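Read counts per gene, whole numbers that the authors deposited without normalization, were used for the 2 shNT and 2 shYEATS2 mRNA-seq libraries of H1299 cells. According to the methods, the authors aligned the reads to hg19 with RUM (RNA-Seq unified mapper) and counted them with HTSeq at default settings, and the submitters' processing notes list HTSeq 0.6.1p1. The annotation used for counting is not given in the sources used here. The deposited fold changes, p-values and FDR values of the authors' own comparison were not used.

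The filter asked for 10 or more reads in 2 or more libraries, and none of the 12676 genes failed it. Genes were tested with glmQLFit and glmQLFTest of edgeR 4.0.16 (R 4.3.3) after TMM scaling, with no replicate block. SE values and 95% intervals follow from the F statistic and its degrees of freedom. Alternatives were DESeq2 1.42.0, exactTest, other scalings (size factors, total counts, upper quartile), other filters (none, mean count of 100 or more), a replicate block, a threshold of 0.05 and each library left out in turn. The test was checked for recovery and sign on simulated counts. Positions and transcript lengths come from a GENCODE annotation on GRCh37, to which 12465 of the 12676 identifiers matched, and promoter sequences from RefSeq on GRCh38.p14.

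The 10 genes and all lists were chosen with earlier results of these data known. The rule for single names takes YEATS2, the 10 genes, up to 3 called genes of each list with the largest change in each direction, and other members of the lists of kinases, partners and transporters where needed. MARS, ASNSP1, PSPH, CBS, PYCR1, ALDH18A1, GOT1, GPT2 and SHMT2 fall outside it and were named after their values had been seen. The same holds for XBP1, HYOU1, HSPA5, HSP90B1, CALR, PDIA4, PDIA6, MANF, CRELD2, DNAJB11, SEL1L, SYVN1 and ATF6. A further marker gene of the cell line is not reported here.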

Additional observations from a re-analysis of the deposited data

How the results depend on the processing

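YEATS2 was called lower in all 13 alternatives. The number of the 10 genes called higher was 7 with exactTest, with the replicate number as a block (replicate block) and at an FDR under 0.05, and 3 to 7 with each library left out in turn, where the remaining library of a group is assumed to vary like the other group. TRIB3, DDIT3 and SESN2 were called in each of these. The number called lower was 0 throughout. The median of the 10 genes was between 0.87 and 1.94 with a library left out, the lowest without shNT replicate 1 and the highest without shNT replicate 2. Total counts moved the median of all genes to 0.12. The small value of PHGDH changed sign with total counts (0.11), the upper quartile (0.010), a mean count of at least 100 (0.0074) and the replicate block (0.013), and lay between -0.23 and 0.26 with a library left out, where ATF4 lay between -0.13 and 0.37 and PSAT1 between -0.20 and 0.40. Of the other 72 genes, the number called lower was 5 with DESeq2, 6 with exactTest, 1 with total counts, 7 with the replicate block, 7 at an FDR under 0.05 and 1 to 3 with a library left out, and the number called higher was 14 to 23 with a library left out and 32 with the replicate block. The cause of these changes was not tested. Over all genes the block gave 2715 lower and 2742 higher calls. The numbers of all genes called higher or lower also changed with the library left out. Deviations of same-numbered libraries from their group means correlated at 0.40 across genes. No label says whether same-numbered libraries share a batch, and this was not tested. Depth limits NUPR1 and GDF15, whose controls had at most 30 reads.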
